A study of Homo sapiens with 21 samples.

Results

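BT-549 is a human triple-negative breast cancer (TNBC) cell line, and its RNA was compared between vehicle-treated tet-shRNA mammospheres and 2D cells. Of the 21 bulk RNA-seq libraries of the series, 9 were used, 3 in each of 3 groups, and they were chosen by their growth format, shRNA and treatment labels. The 2D group held wild-type BT-549 cells without an shRNA, grown attached in RPMI1640 medium with 10% fetal bovine serum and insulin. The tet-MUC1shRNA vehicle group and the tet-MYCshRNA vehicle group held mammospheres, which are floating spheres grown in MammoCult medium on plates to which cells do not attach. Both mammosphere lines came from BT-549, were transduced with a pLKO-tet-puro vector whose shRNA against MUC1 or MYC is switched on by doxycycline (DOX), were selected with puromycin, and received 0.1% DMSO with no DOX. By their sample names the tet-MUC1shRNA spheres were at serial passage 6 and the tet-MYCshRNA spheres at passage 8, but the study also describes tet-MYCshRNA spheres of passage 6, so the passage of that line is uncertain. The 3 libraries of a group are cultures of 1 line, so p-values measure only the spread between those cultures. Growth format, medium, serum, transduction, selection, DMSO and passage all change together between 2D cells and each mammosphere line and cannot be told apart here. The lines also differ from each other in shRNA, sequencing depth and, by the sample names, passage. The comparison asks which differences from 2D cells were found in both transduced lines and which in 1 of them.

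Mammosphere culture is used to enrich cells that survive and divide without attachment, a property linked to tumor-initiating cells. Detached and clustered cells lose the tension of the substrate, and the inside of a sphere can receive less oxygen. Cells short of oxygen stabilise the HIF transcription factors, which bind short DNA elements and raise genes of glucose uptake, glycolysis, acid handling and blood vessel growth. Interferon-stimulated genes respond to another system, in which STAT and IRF factors bind interferon response elements and antiviral proteins are made. MUC1 encodes a membrane mucin whose C-terminal subunit, MUC1-C, also signals to the nucleus, and MYC encodes a transcription factor that drives growth and metabolism.

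Library totals were 43861798 to 57993265 counts in 2D, 41132120 to 53548353 in the tet-MUC1shRNA line and 60288513 to 99751717 in the tet-MYCshRNA line. Replicates of a group were not copies of one library, since the chi-square of their counts divided by its degrees of freedom was 5.65 to 18.6 over the 9 pairs. In each library 966 to 1213 genes had a count of 1 and 2739 to 3190 a count of 2, and 32.1% to 35.4% of the counts from 1 to 99 were odd, so both reads of a pair were mostly counted. Counting intervals and bounds below take each count as 1 observation and are too narrow to that extent. Levels are given as CPM, which are counts scaled to a common library size with TMM factors over all 21 libraries. The label of the tissue is epithelial breast, but EPCAM, KRT8, KRT18 and KRT19 stayed at or under 0.179 CPM in the mean of every group, and CDH1 at or under 1.42 CPM. The mesenchymal genes VIM, FN1 and ZEB1 had group means of 93.8 CPM or more, while CDH2 went from 441 CPM in 2D to 11.9 and 22.1 CPM in the lines. ESR1 and PGR were at or under 0.358 CPM in every group mean, and ERBB2 was at 19.99 to 35.4 CPM. Of the markers of other cell types, PECAM1 went from 0.0114 CPM in 2D cells to 4.05 and 6.74 CPM in the lines, and the endothelial markers VWF and CDH5 stayed at or under 0.0833 CPM. The leukocyte marker PTPRC (1.25 CPM) and the fibroblast markers LUM (7.92), DCN (14.8) and PDGFRA (6.62) were highest in the 2D mean. The leukocyte marker CD68 was at 0.0819 CPM in 2D and 0.545 and 0.260 CPM in the lines, the fibroblast marker PDGFRB at 0.154 CPM in 2D and 0.405 and 0.0661 CPM in the lines, CD3E stayed at or under 0.0306 CPM, and the part of these markers in any result was not tested. The count table also lacks values for 6498 genes in the 2D libraries and the untransduced 3D mammospheres that share their block, 4952 in the tet-MUC1shRNA libraries and 5761 in the tet-MYCshRNA libraries, so the 3 groups stand in 3 blocks of the table, and block and group cannot be told apart. No listed gene had a total of 0 within the block of a group, so a missing value was read as 0.

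In the edgeR quasi-likelihood test, 1981 genes were called higher and 2229 lower in tet-MUC1shRNA mammospheres than in 2D cells, which is 22.1% of the 19018 genes tested. A gene was called at an adjusted p below 0.1 with an absolute log2 fold change above 1.5. In tet-MYCshRNA mammospheres 1548 genes were called higher and 1874 lower, 17.2% of 19948. Of the 18646 genes tested in both comparisons, 1002 (5.37%) were called up in both lines and 1259 (6.75%) down in both. The other calls were 976 genes up and 967 down in the tet-MUC1shRNA line alone, 543 up and 612 down in the tet-MYCshRNA line alone, and 6 called in opposite directions. Both comparisons use the same 2D libraries, so a shift in those libraries moves both. The lines were therefore also compared with each other, where 995 genes were called higher and 1032 lower in the tet-MYCshRNA line, 10.6% of 19140 genes tested (5.2% higher and 5.39% lower). By that test, 907 of the 1943 calls made in the tet-MUC1shRNA line alone and 367 of the 1155 made in the tet-MYCshRNA line alone differed between the lines. By adjusted p alone, with no limit on the fold change, 36.1% and 37.8% of genes were higher and lower than 2D in the tet-MUC1shRNA line, and 33.8% and 32.4% in the tet-MYCshRNA line. Among the 1002 genes up in both, 59 were called further up in the tet-MYCshRNA line and 105 less far up. Among the 1259 down in both, 765 could be tested between the lines, and 117 were called different.

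**Figure D1:**
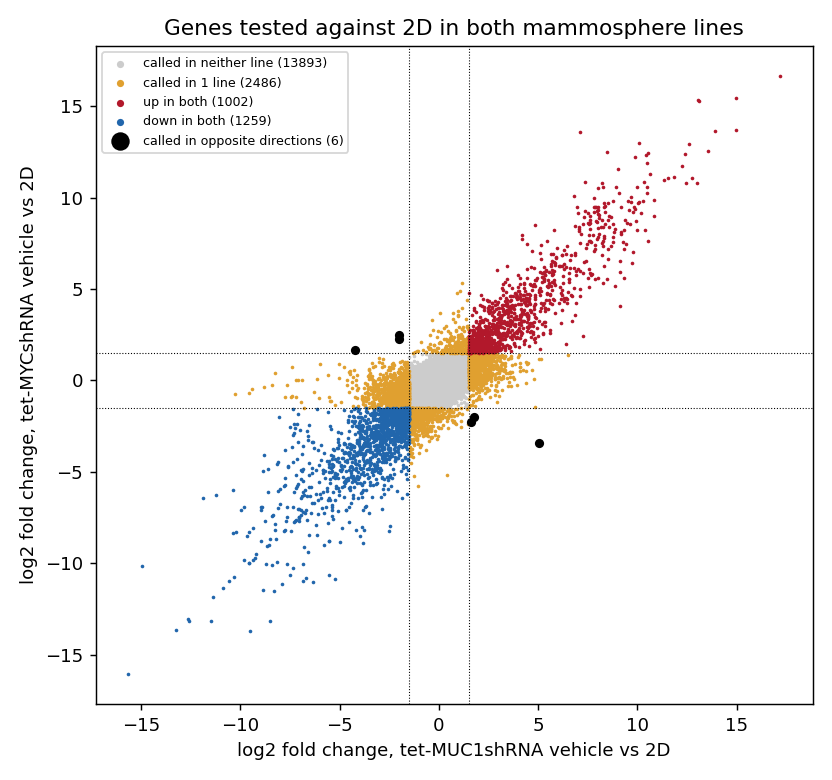
Each point is a gene tested against 2D in both lines, with its log2 fold change in tet-MUC1shRNA vehicle mammospheres on the x axis and in tet-MYCshRNA vehicle mammospheres on the y axis; dotted lines mark 1.5 in each direction. The 1002 genes up in both lie at the upper right and the 1259 down in both at the lower left, and the 6 large black points are called in opposite directions.

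The gene targeted by each shRNA was not reduced below its 2D level in these vehicle-treated cultures. MUC1 was at 51.9, 56.3 and 53.9 CPM in the 2D libraries, 101, 83.1 and 86.6 CPM in the tet-MUC1shRNA line and 66.5, 67.1 and 73.4 CPM in the tet-MYCshRNA line. The 3 groups did not overlap, and MUC1 was highest in the line that carries its own shRNA. Its rise passed the adjusted p but not the fold threshold in either line (log2 fold change 0.74, SE 0.07, adjusted p = 1.3e-07 and log2 fold change 0.35, SE 0.06, adjusted p = 1.5e-04). MYC was at 90.4, 87.3 and 78.3 CPM in 2D, 241, 255 and 239 CPM in the tet-MUC1shRNA line and 439, 418 and 386 CPM in the tet-MYCshRNA line. It was called up in both (log2 fold change 1.52, SE 0.06, adjusted p = 1.4e-12 and log2 fold change 2.28, SE 0.06, adjusted p = 1.2e-12) and was higher in the tet-MYCshRNA line than in the tet-MUC1shRNA line by 0.78 on the log2 scale (adjusted p = 1.7e-09). The call in the tet-MUC1shRNA line sits at the fold threshold and fell under it without 2D replicate 3 (1.46) or tet-MUC1shRNA replicate 2, and with library size alone (1.42) or a minimum of 10 counts in every library. Untransduced 3D mammospheres had MUC1 at 182 to 222 CPM and MYC at 553 to 601 CPM, above both vehicle-treated lines, and whether the shRNAs act without DOX was not tested.

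The genes with the largest fitted rises in both lines were near 0 in 2D cells and reached 10.6 to 2356 CPM in mammospheres. FKBP5, a co-chaperone of steroid hormone receptors, was at 0, 0 and 0.0342 CPM in 2D, from 0, 0 and 2 counts. It was at 2104, 2206 and 2356 CPM in the tet-MUC1shRNA line and 1479, 1446 and 1499 CPM in the tet-MYCshRNA line, ratios of 180030.0 (95% counting interval 49837 to 1486570.0) and 118452 (32791 to 978097). F3, tissue factor, which starts blood coagulation, had no count in any 2D library. It was at 84.1, 73.2 and 85.5 CPM in the tet-MUC1shRNA line and 78.8, 82.1 and 87.4 CPM in the tet-MYCshRNA line, at least 1217-fold and 1245-fold higher. These bounds set the 2D level at 3 counts in the smallest 2D library, and, like the intervals, they cover counting error only. ABLIM3, an actin-binding LIM protein, was at 0.0887, 0.0348 and 0.0342 CPM in 2D, 828, 785 and 778 CPM in the tet-MUC1shRNA line and 689, 653 and 639.7 CPM in the tet-MYCshRNA line, a log2 fold change of 13.89 and 13.65.

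EREG, NOS2, STEAP2, FOXC2 and AKR1C2 were also named by their fitted changes, all without a count in 2D, where a fitted change depends on the prior count and gives no order of size. EREG encodes epiregulin, a ligand of the EGF receptor, and was higher by at least 1234-fold in the tet-MUC1shRNA line (73.0, 90.1 and 83.2 CPM) and 381-fold in the tet-MYCshRNA line (23.8, 26.5 and 25.7 CPM). The order was turned for NOS2, the inducible nitric oxide synthase, with at least 336-fold (22.8, 23.1 and 21.1 CPM) and 1123-fold (83.8, 73.2 and 67.1 CPM). The metalloreductase STEAP2 also stood higher in the tet-MYCshRNA line, at 73.8 to 84.9 CPM against 21.2 to 22.5 CPM. Between the lines EREG was lower in the tet-MYCshRNA line (log2 -1.68, adjusted p = 1.5e-11), and NOS2 and STEAP2 were higher (log2 1.76 and 1.86, adjusted p = 1.4e-11 and 9.9e-13). FOXC2, a forkhead transcription factor, was at 15.3 to 16.7 and 14.2 to 15.4 CPM, and the steroid-converting enzyme AKR1C2 at 30.1 to 31.4 and 10.6 to 12.1 CPM.

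Among genes with over 3 counts in some 2D library, chosen after their values were seen, the largest rises included GLUL, glutamine synthetase. GLUL was at 0.310, 0.487 and 0.479 CPM in 2D against 1194, 1064 and 1143 CPM and 873, 843 and 863 CPM in the 2 lines. PDK4, the kinase that shuts pyruvate dehydrogenase, was at 0, 0.104 and 0.103 CPM in 2D, 579, 687 and 654 CPM in the tet-MUC1shRNA line and 132, 130.2 and 138 CPM in the tet-MYCshRNA line. All mammosphere libraries lay above all 2D libraries for both genes, and PDK4 was also higher in the tet-MUC1shRNA line than in the other (log2 -2.25, adjusted p = 5.2e-14). Other large rises in this set were those of the proteoglycan core SRGN (log2 fold change 11.87 and 11.12), the phosphorylase kinase subunit PHKA1 (10.51 and 10.26), SRPX (10.26 and 9.83), AFAP1L1 (9.51 and 9.80) and SERPINB7 (8.50 and 8.76). In all, 41 genes had at most 3 counts in each 2D library and at least 100 normalized counts in every library of both lines. Others among the 41 were the transcription factor ZBTB16, the lipid carrier FABP4, xanthine dehydrogenase XDH and the death receptor TNFRSF10A.

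The genes with the largest fitted falls in both lines were near 0 in mammospheres. OR2T8, an olfactory receptor, was at 164, 118 and 109 CPM in 2D and had no count in any library of either line, a fall of at least 1664-fold in the tet-MUC1shRNA line and 2660.3-fold in the tet-MYCshRNA line. Its neighbour OR2T33 (22.1, 14.4 and 12.1 CPM in 2D), CCDC3 (20.8, 25.0 and 27.8 CPM) and the heparan sulfate 6-O-sulfotransferase HS6ST2 (7.27, 6.45 and 6.87 CPM) likewise had no count in either line. The OR2T genes resemble each other, so their counts are uncertain where reads fit several copies. IQGAP2, a scaffold of the actin cytoskeleton, fell from 227, 244 and 277 CPM to at most 0.0590 CPM in each line (log2 fold change -12.59 and -13.17). ANOS1, an extracellular matrix protein, was at 80.7, 89.3 and 108 CPM in 2D and at 0 to 0.0941 and 0 to 0.0326 CPM in the lines, and LUZP2 was at 77.4, 80.5 and 89.9 CPM in 2D and changed by a log2 of -9.79 and -9.83.

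CDH6, a cadherin, was at 1033, 1007 and 1116 CPM in 2D, 0.104, 0 and 0 CPM in the tet-MUC1shRNA line and 0.905, 0.906 and 0.979 CPM in the tet-MYCshRNA line. It fell in both, and it was the one of the 8 genes named by their fitted falls with enough counts for a test between the lines, where it was called higher in the tet-MYCshRNA line by a log2 of 4.85 (adjusted p = 4.3e-06). The falls chosen after their values were seen, among genes still counted in the lines, included LRRN1 (651, 600.0 and 657 CPM in 2D, log2 fold change -8.68 and -10.04), the guidance cue SEMA3D (311, 273 and 299 CPM, -8.25 and -8.18) and the scavenger receptor SCARA3 (105, 119 and 104 CPM, -10.19 and -8.29). NTRK3, the neurotrophin-3 receptor, changed by -9.67 and -8.51, the hedgehog co-receptor BOC by -8.48 and -8.65, and PRSS35 by -9.21 and -9.47. In the reverse of the on-off pattern above, 15 genes had at least 100 normalized counts in every 2D library and at most 3 counts in every library of both lines.

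**Figure D2:**
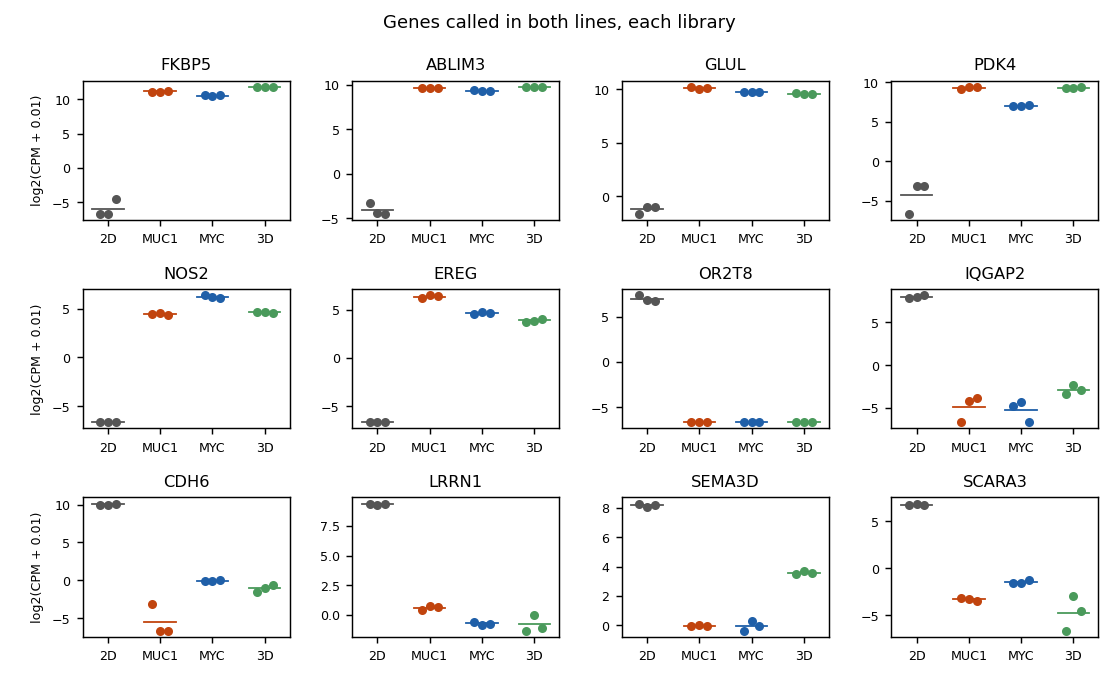
Each panel shows 1 gene called in both lines, with log2(CPM + 0.01) on the y axis, 1 point per library, a line at the group mean, and from left to right 2D, tet-MUC1shRNA vehicle (MUC1), tet-MYCshRNA vehicle (MYC) and untransduced 3D mammospheres. FKBP5, ABLIM3, GLUL, PDK4, NOS2 and EREG rise from near 0 in 2D, and OR2T8, IQGAP2, CDH6, LRRN1, SEMA3D and SCARA3 fall to near 0 or to about 1 CPM in both lines, while SEMA3D is at 11.2 to 13.2 CPM in untransduced 3D mammospheres.

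Many genes of glucose uptake and glycolysis rose in both lines. Of 20 such genes, 9 were called up in the tet-MUC1shRNA line and 8 in the tet-MYCshRNA line, 7 in both and none down, beside backgrounds of 10.4% and 7.76% of all genes called up. For every list that follows, the same backgrounds hold, with 11.7% and 9.39% of all genes called down and 5.37% up and 6.75% down in both. The median log2 fold change of the list was 1.19 and 1.21, beside -0.03 and 0.00 over all genes tested. SLC2A3, the glucose transporter GLUT3, was at 0.488, 0.452 and 0.581 CPM in 2D, 111, 85.4 and 100.3 CPM in the tet-MUC1shRNA line and 27.9, 28.9 and 33.2 CPM in the tet-MYCshRNA line. HK2, a hexokinase that carries out the first step of glycolysis, was at 32.5, 27.5 and 29.0 CPM in 2D, 383, 284 and 305 CPM and 264, 264 and 282 CPM. For both genes every mammosphere library lay above every 2D library (log2 fold change 7.59, SE 0.14, adjusted p = 6.6e-17 and log2 fold change 5.88, SE 0.13, adjusted p = 1.3e-13 for SLC2A3, and log2 fold change 3.45, SE 0.10, adjusted p = 1.9e-14 and log2 fold change 3.19, SE 0.07, adjusted p = 5.0e-14 for HK2). SLC2A1 (GLUT1) changed by a log2 of 3.11 and 2.94, ALDOA by 2.69 and 1.77, GAPDH by 2.64 and 1.62, ALDOC by 4.57 and 3.05, and the enolase ENO2 by 4.16 and 2.66. Against these, PGAM1 (0.25 and 0.09), ENO1 (0.48 and 0.32) and PKM (-0.01 and 0.65) were below the fold threshold in both. SLC2A3 was called lower in the tet-MYCshRNA line than in the tet-MUC1shRNA line (log2 -1.71), as was ALDOC, whose difference of -1.505 fell under the threshold with 9 of the alternative settings.

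Of 25 further genes raised by low oxygen, 15 were called up in the tet-MUC1shRNA line and 14 in the tet-MYCshRNA line, all of the latter in both. The median log2 fold change was 2.34 and 1.60. EGLN3, a prolyl hydroxylase that marks HIF for breakdown, was at 0, 0.0174 and 0.137 CPM in 2D, 24.1, 14.3 and 18.4 CPM in the tet-MUC1shRNA line and 12.5, 12.3 and 14.1 CPM in the tet-MYCshRNA line. CA9, a carbonic anhydrase at the cell surface, was at 0.532, 1.18 and 0.752 CPM in 2D, 50.1, 33.9 and 37.9 CPM and 22.2, 21 and 22.9 CPM. NDRG1, a stress-response gene, was at 4.88, 7.82 and 5.54 CPM in 2D, 639, 408 and 504 CPM and 721, 715 and 747 CPM. All 3 rose in both lines, by log2 fold changes of 8.34 and 7.81, 5.59 and 4.71, and 6.39 and 6.90, and NDRG1 stood higher in the tet-MYCshRNA line than in the other (log2 0.51, adjusted p = 4.3e-04). The lipid regulator ANGPTL4 (4.73 and 5.16), the peptide hormone ADM (5.61 and 4.24), the angiogenic factor VEGFA (3.20 and 2.52), the lactate exporter SLC16A3 (4.19 and 3.25) and PFKFB4 (3.58 and 3.27) rose as well. The collagen hydroxylase P4HA2 and STC2 were called down in the tet-MYCshRNA line (-1.68 and -2.01) and were below the threshold in the tet-MUC1shRNA line. No member of the list was called different between the lines, though 19 were lower and 5 higher in the tet-MYCshRNA line by adjusted p alone, beside 33.3% and 33.5% of all genes.

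Promoter stretches of 3 of these genes are shown because the list is defined by a DNA-binding factor. They come from RefSeq on GRCh38.p14, and capitals mark a match to the core of the hypoxia response element, ACGTG or GCGTG on either strand. The 3 were chosen among members up in both lines with a match and a large change in both. They are examples and not a ranking of the whole list. EGLN3 and NDRG1, with larger changes in both lines, are not shown. Each stretch is written 5′ to 3′ on the gene's strand. ANGPTL4 lies at chr19:8363905-8363975, CA9 at chr9:35673860-35673927 and ADM at chr11:10304922-10305026, all on the plus strand and upstream of the start RefSeq gives. GENCODE 44 starts ANGPTL4 earlier, at base 8363289 of chromosome 19, so its stretch lies inside that longer gene model.
ANGPTL4: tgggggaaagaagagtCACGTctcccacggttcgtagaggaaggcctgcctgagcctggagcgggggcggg
CA9: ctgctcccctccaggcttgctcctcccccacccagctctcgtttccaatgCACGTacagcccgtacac
ADM: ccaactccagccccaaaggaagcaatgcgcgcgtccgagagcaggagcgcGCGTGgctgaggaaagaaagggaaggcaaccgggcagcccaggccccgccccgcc
Within 250 bases before the start, 17 of the 22 list members found in the promoter table had such a match, and 8 of 11 members up in both. The share was 43.08% of all 27305 promoters and 56.3% of the 11612 promoters of genes tested in both lines, so this core is common and the match is a description of the sequence only.

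Most genes that follow growth factor signalling through ERK rose in both lines. Of 13 feedback genes, 10 were called up in the tet-MUC1shRNA line, 9 of the 12 tested in the tet-MYCshRNA line, 8 in both, beside 10.4% and 7.76% of all genes up and 5.37% up in both, with medians of 3.24 and 2.65. SPRY4, an inhibitor of receptor tyrosine kinase signalling, was at 4.61, 4.21 and 3.81 CPM in 2D, 219, 224 and 224 CPM in the tet-MUC1shRNA line and 243, 236 and 233 CPM in the tet-MYCshRNA line. DUSP5, a phosphatase that acts on ERK, was at 4.61, 4.87 and 5.61 CPM in 2D, 309, 259 and 285 CPM and 107, 106 and 107 CPM. DUSP4 (log2 5.73 and 4.47), DUSP6 (3.41 and 4.08) and the transcription factors ETV4 (4.61 and 4.68) and ETV5 (2.97 and 2.90) also rose in both. Of 15 AP-1 and immediate early genes, 8 were called up in the tet-MUC1shRNA line and 5 in the tet-MYCshRNA line, all 5 in both (FOS, FOSB, FOSL1, EGR1 and DUSP1), with medians of 1.74 and 1.02. Of the 5, FOSL1 went from 28.2, 22.1 and 19.7 CPM to 286, 265 and 282 CPM and 413, 383 and 381 CPM, while JUN (-0.59 and 0.14) and JUNB (0.42 and 0.22) were not called.

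Upstream of this pathway, the EGF receptor ligands moved apart. AREG, amphiregulin, was at 0, 0.0174 and 0 CPM in 2D, 2.22, 2.30 and 2.03 CPM in the tet-MUC1shRNA line and 3.83, 3.39 and 2.50 CPM in the tet-MYCshRNA line, and it rose with EREG in both. HBEGF went from 15.3, 11.5 and 12.7 CPM to 1.25, 1.36 and 1.42 CPM in the tet-MUC1shRNA line and 4.27, 4.68 and 5.19 CPM in the tet-MYCshRNA line and was called down in the former alone, with the lines called different (log2 1.82, adjusted p = 3.7e-08). Its change in the tet-MYCshRNA line (-1.48) was just under the fold threshold and passed it with protein-coding genes alone and without 2D replicate 2, 2D replicate 3 or tet-MYCshRNA replicate 3. The ErbB3 and ErbB4 ligand NRG1 was also called down in the tet-MUC1shRNA line alone (-2.07 and -1.11), with a difference between lines below the threshold. Of the 12 genes of this family 7 were tested, the receptors EGFR, ERBB2 and ERBB3 were not called in either line, and the medians were -0.35 and -0.71.

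The cyclin D1 gene CCND1, a driver of G1 progression, was at 1.22, 1.16 and 1.81 CPM in 2D, 121, 128 and 126 CPM in the tet-MUC1shRNA line and 232, 224 and 239 CPM in the tet-MYCshRNA line. The CDK inhibitor gene CDKN1A (p21) rose too, from 4.12, 5.70 and 6.90 CPM to 110.4, 92.3 and 90.5 CPM and 64.5, 62.9 and 63.9 CPM. CDKN2C (p18) fell, from 382, 423 and 414 CPM to 45.8, 46.8 and 41.5 CPM and 58.1, 56.8 and 55.0 CPM. These groups did not overlap for any of the 3 genes. Of 17 G1 cyclins and CDK inhibitors, 16 were tested in each line, 3 were called up and 2 down in the tet-MUC1shRNA line, and 4 up and 2 down in the tet-MYCshRNA line, beside 10.4% up and 11.7% down and 7.76% up and 9.39% down of all genes, with medians of 0.30 and 0.27.

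Secreted signals moved in both directions. Of 22 cytokines and chemokines, 16 were tested in each line, and 5 were called up and 3 down in both. CSF3, the granulocyte growth factor G-CSF, was at 0.0222, 0.0348 and 0 CPM in 2D, 39.0, 38.8 and 40.0 CPM in the tet-MUC1shRNA line and 19.99, 19.0 and 18.5 CPM in the tet-MYCshRNA line. The neutrophil attractant CXCL8 was at 8.54, 6.31 and 6.41 CPM in 2D, 147, 124 and 142 CPM and 127, 122 and 158 CPM, and the monocyte attractant CCL2 at 18.2, 14.5 and 11.6 CPM in 2D, 0.887, 1.55 and 1.38 CPM and 0.133, 0.0591 and 0.0979 CPM. CXCL8 was not called different between the lines (log2 difference -0.01, SE 0.08, adjusted p = 0.95), and CCL2 was lower in the tet-MYCshRNA line (log2 -3.72). CCL20, CXCL3 and CSF1 also rose, CXCL6 and CCL5 also fell, the list medians were 0.91 and 0.46, and IL6 was called up in the tet-MUC1shRNA line alone (2.56 against 0.18) with the lines called different.

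Most interferon-stimulated genes fell in both lines. Of 35 such genes, 33 were tested in each line, 20 were called down in the tet-MUC1shRNA line, 21 in the tet-MYCshRNA line and 19 in both, beside 11.7% and 9.39% of all genes called down. Medians were -1.85 and -2.24. IFI44 was at 6.92, 12.9 and 12.6 CPM in 2D, 0.626, 0.235 and 0.629 CPM in the tet-MUC1shRNA line and 0.293, 0.246 and 0.294 CPM in the tet-MYCshRNA line. MX1, a GTPase that blocks viruses, was at 5.28, 7.65 and 8.48 CPM in 2D, 0.887, 0.635 and 0.728 CPM and 0.186, 0.217 and 0.294 CPM, and SAMD9 was at 12.3, 13.7 and 17.0 CPM in 2D, 0.418, 0.376 and 0.472 CPM and 1.44, 1.44 and 1.89 CPM. No mammosphere library reached a 2D library for these 3 genes, and the lowest 2D library for IFI44 and MX1 was replicate 1. MX1 was called lower and SAMD9 higher in the tet-MYCshRNA line than in the tet-MUC1shRNA line (log2 -1.68 and 1.91, adjusted p = 7.4e-04 and 7.6e-06). Of the 28 list members tested between the lines, 6 were called lower and 1 higher in the tet-MYCshRNA line, beside 5.39% and 5.2% of all genes, and 17 were lower and 3 higher by adjusted p alone, beside 33.3% and 33.5%. OAS1 (-2.88 and -5.27), RSAD2 (-3.16 and -5.67), BST2 (-3.51 and -5.30) and ISG15 (-3.22 and -3.16) fell as well, and the factors STAT2, IRF7 and IRF9 were not called. Against the list, IFITM1, IFITM2 and IFITM3 were called up in the tet-MUC1shRNA line (2.45, 4.68 and 2.20), and these closely related genes can share reads. Of 16 genes of MHC class I presentation, 13 were tested, and PSMB9 and the regulator NLRC5 were called down in both. The list had medians of -0.43 and -0.99.

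Promoters of 3 interferon-stimulated genes down in both lines are given for the same reason, from RefSeq on GRCh38.p14. Capitals mark the core of the interferon response element on either strand, searched as TTTC, any 2 bases, TTTC. The 3 were chosen for a match and a high 2D level, as examples and not as a ranking of the whole list. SAMD9 lies at chr7:93118056-93118165 on the minus strand, IFI44 at chr1:78649721-78649788 and OAS3 at chr12:112938412-112938473 on the plus strand, all upstream of the RefSeq start and written along the gene's strand. GENCODE 44 starts OAS3 earlier, at base 112938051 of chromosome 12, so its stretch too lies inside that gene model.
SAMD9: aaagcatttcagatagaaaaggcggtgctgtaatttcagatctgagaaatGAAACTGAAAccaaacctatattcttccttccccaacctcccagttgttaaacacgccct
IFI44: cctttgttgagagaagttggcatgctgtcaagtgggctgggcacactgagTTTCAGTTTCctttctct
OAS3: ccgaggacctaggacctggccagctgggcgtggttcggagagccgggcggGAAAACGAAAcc
Of the 25 list members in the promoter table, 15 had a match within 250 bases before the start, as did 9 of 15 members down in both, against 3.073% of all promoters and 2.385% of promoters of genes tested in both lines. The list is made of known interferon targets, so a high share of this motif is a property of the list.

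Matrix and adhesion genes changed in both directions. Of 21 collagen genes, 20 were tested in the tet-MUC1shRNA line and 19 in the tet-MYCshRNA line, 7 were called down and 2 up in both, and the medians were -1.29 and -1.30. COL3A1, a fibrillar collagen, was at 640.1, 852 and 909.9 CPM in 2D, 13.05, 11.2 and 13.8 CPM in the tet-MUC1shRNA line and 11.2, 10.9 and 10.4 CPM in the tet-MYCshRNA line. COL1A1 (-2.67 and -4.28) and COL5A1 (-2.22 and -3.63) fell with it. The collagen VI chains split: COL6A1 rose from 41.1, 45.7 and 41.3 CPM to 1072, 929.7 and 943 CPM and 1003, 895 and 865 CPM, COL6A2 rose with it (5.54 and 5.32), and COL6A3 fell (-3.45 and -4.35). FN1, fibronectin, rose by 4.51 and 3.52. Among integrins, 16 of 18 were tested, 4 were called up in both (ITGA1, ITGA5, ITGA7 and ITGA10) and ITGB8 down in both, with medians of 0.24 and 0.44. ITGA10, a collagen-binding subunit, was at 5.03 to 9.28 CPM in 2D and at 246 to 274 and 241 to 256 CPM, and ITGA5, the fibronectin receptor subunit, at 49.5 to 54.0 CPM in 2D and at 363 to 412 and 326 to 364 CPM.

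In the basement membrane list, 13 of 14 genes were tested, LAMA4, LAMB3 and NID2 were called up and AGRN down in both, and the medians were -0.08 and -0.19. The call of NID2 in the tet-MYCshRNA line was lost without 2D replicate 3. The LAMA4 levels were 0.843 to 1.71 CPM in 2D and 104 to 115 and 91.0 to 93.4 CPM in the lines. Of 18 matrix metalloproteinases and inhibitors, 14 and 16 were tested, with 6 called up and 4 down in both. MMP19 changed by 7.85 and 7.39, TIMP3 by 5.45 and 4.77, the collagenase MMP1 by 4.42 and 2.92, and the aggrecanase ADAMTS5 by -5.31 and -4.70. The list's medians were -0.39 and 0.04, and -0.07 and 0.04 with genes at 0 set at their bounds.

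Some genes of contractile actin fibres fell. Of 22 in the list, 19 and 18 were tested, 6 were called down in each line and 5 in both, with medians of -0.57 and -0.62. TPM1, a tropomyosin, was at 273, 249 and 230.1 CPM in 2D, 8.43, 8.75 and 11.4 CPM in the tet-MUC1shRNA line and 16.7, 16.3 and 15.7 CPM in the tet-MYCshRNA line, and CALD1 at 101, 97.1 and 106 CPM in 2D, 7.26, 6.77 and 7.53 CPM and 11.03, 11.9 and 13.1 CPM. TAGLN (-5.01 and -6.04), MYL9 (-3.94 and -4.87) and CNN1 (-4.41 and -3.73) were the others down in both, while VCL (-0.17 and 0.07) and ZYX (0.98 and 0.51) were not called. Of 18 YAP and TEAD targets, 17 were tested, 3 were called up and 3 down in both, and the medians were -0.28 and 0.08. CCN2, a widely used YAP target, was called down in the tet-MYCshRNA line alone (-3.10 against -0.39) with the lines called different.

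Several cadherins fell in both lines, and the transcription factors of epithelial-mesenchymal transition moved apart. Of 18 cadherins and marker proteins, 15 and 14 were tested, 6 were called down in both (CDH1, CDH2, CDH6, CDH11, CDH13 and SPARC) and FN1, CLDN1 and CLDN7 up in both, with medians of -0.85 and -1.38. CDH2, N-cadherin, was at 443, 429.7 and 452 CPM in 2D, 12.9, 11.5 and 11.3 CPM in the tet-MUC1shRNA line and 21.5, 23.1 and 21.6 CPM in the tet-MYCshRNA line. CDH11 was at 573, 630.4 and 693 CPM in 2D, 3.37, 2.63 and 3.19 CPM and 3.11, 2.94 and 3.26 CPM. Of 8 transcription factors, FOXC2 and PRRX1 were called up and SNAI1 down in both, with medians of 1.09 and 0.40. PRRX1 was at 12.9 to 17.1 CPM in 2D and at 421 to 453 and 384 to 398 CPM, and SNAI1 at 6.72 to 9.25 CPM in 2D and at 1.20 to 1.65 and 0.588 to 0.812 CPM. ZEB1 was called up in the tet-MUC1shRNA line and was just under the threshold in the other (1.78 and 1.41). In the TGF-beta list of 16, TGFBR2 was called up (3.17 and 2.94) and TGFB2 (-4.19 and -4.92) and TGFBR1 (-1.78 and -2.90) down in both, with list medians of 0.11 and -0.19.

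Of 17 stem cell markers, 10 and 12 were tested. CD24, whose low level with high CD44 is used to mark breast cancer stem cells, was at 513, 576 and 602 CPM in 2D, 5.59, 4.21 and 4.76 CPM in the tet-MUC1shRNA line and 20.1, 16.6 and 17.2 CPM in the tet-MYCshRNA line. CD44 changed by -1.35 and -0.99, below the threshold. ALDH1A1, the aldehyde dehydrogenase behind a common stem cell assay, had no count in 2D. It was at 0.261, 0.376 and 0.393 CPM in the tet-MUC1shRNA line and 23.3, 21.8 and 23.0 CPM in the tet-MYCshRNA line, at least 5.16-fold and 341-fold higher, and like 2D the untransduced 3D mammospheres have no value for it in the table. SOX9 and LGR5 fell in both, SOX2 was called up in the tet-MYCshRNA line alone (3.48) and had no count in the other, and the list medians were 0.00 and -0.52.

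Metallothioneins, small proteins that bind zinc and copper, rose in both lines. All 7 tested members were called up in the tet-MUC1shRNA line, and 5 of 6 were called up in the tet-MYCshRNA line, with medians of 4.20 and 3.27. MT1X was at 11.8, 13.2 and 9.55 CPM in 2D, 813, 861 and 847 CPM in the tet-MUC1shRNA line and 193, 168 and 142 CPM in the tet-MYCshRNA line. MT1M was at 0.177, 0.261 and 0.0684 CPM in 2D, 95.8, 94.6 and 92.7 CPM and 2.85, 3.07 and 2.46 CPM, and MT2A at 158, 143 and 97.9 CPM in 2D, 1124, 1089 and 1070.3 CPM and 1730.4, 1387 and 1160.2 CPM. The lines differed most for MT1M (log2 -5.05, adjusted p = 6.7e-16), while MT2A was slightly higher in the tet-MYCshRNA line (0.398, adjusted p = 0.0016). MT1F was called in opposite directions (1.64 and -2.26), and these near-identical genes may exchange reads. Of 18 NRF2 targets, 16 were tested in each line. AKR1C1 (9.33 and 8.25), AKR1C2, AKR1C3 (8.27 and 8.40) and OSGIN1 rose in both, and the cystine carrier SLC7A11 fell (-2.17 and -2.95). NQO1 (0.89 and 0.82), GCLM (-0.29 and 0.12) and TXNRD1 (0.15 and -0.36) were not called, and the list medians were 0.33 and 0.29.

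Some neighbouring genes shared a class. On chromosome 19 (42866464 to 43269530, GRCh38), 7 neighbouring pregnancy-specific glycoprotein genes were down in both, and on chromosome 1 (89006679 to 89272860) 6 neighbouring guanylate-binding protein genes, GBP1 to GBP5 and GBP7, were down in both. Genes that were not tested may lie between such neighbours. Other runs of neighbouring protein-coding genes down in both were TRIM58, OR2W3, OR2T8, OR2T33 and OR2T12 on chromosome 1, IFIT1, IFIT2 and IFIT3 on chromosome 10, OAS1, OAS2 and OAS3 on chromosome 12, and 4 butyrophilin genes on chromosome 6. Up in both were MT3, MT2A, MT1E and MT1M on chromosome 16, AKR1E2, AKR1C1, AKR1C2 and AKR1C3 on chromosome 10, and STEAP4, STEAP1, STEAP2 and CFAP69 on chromosome 7. Runs that are not one family included CPE, TLL1, SPOCK3, DDX60, DDX60L and PALLD on chromosome 4, down in both, and PRRG1, LANCL3, DYNLT3, SRPX, RPGR and MID1IP1 on the X chromosome, up in both. Several of the named runs are families of similar copies, for which the handling of reads with several matches is not given in the sources used here.

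Genes of the first 60 Mb of the X chromosome, nearly all of its short arm, were higher in both lines, a comparison chosen after the values were seen. Of the 180 tested protein-coding genes that start in the first 60 Mb of the X chromosome, 145 had a log2 fold change above 0 in the tet-MUC1shRNA line and 151 in the tet-MYCshRNA line. Their medians were 0.86 and 0.93, beside -0.14 and -0.03 for the 268 genes on the rest of the chromosome. In windows of 10 Mb with at least 20 genes, the median change of a window outside the X chromosome ran no higher than 0.52 and 0.63, while the window from 40000001 to 50000000 on X reached 1.04 and 0.97. Of the 180 genes, 45 were called up and 11 down in the tet-MUC1shRNA line and 39 up and 8 down in the tet-MYCshRNA line. Over all tested protein-coding genes these numbers were 1305 up and 1328 down of 13182 and 1071 up and 1279 down of 13366. Untransduced 3D mammospheres, compared with the same 2D libraries, had a median of 0.74 for these genes. DNA copy number was not measured, so its part in this shift was not tested.

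The tet-MUC1shRNA line alone had 907 calls that differed from the tet-MYCshRNA line, and many of them were not protein-coding. Pseudogenes made up 36.2% of the 475 genes up and 46.5% of the 432 genes down, against 5.69% and 5.32% of the genes up and down in both and 12.8% of all genes tested. Processed pseudogenes took 0.954% to 1.03% of the counts in tet-MUC1shRNA vehicle libraries and 0.753% to 0.805% in the DOX-treated libraries of the same line, but 0.337% to 0.627% in the other 5 groups of the series. Small noncoding RNA genes took 0.113% to 0.203% of the counts in both treatments of that line, but 0.335% to 0.588% elsewhere. RN7SKP80, a copy related to the 7SK small RNA, was at 2082, 2892 and 2572 CPM in 2D, 4.59, 3.50 and 3.30 CPM in the tet-MUC1shRNA line and 2365, 1872 and 1267 CPM in the tet-MYCshRNA line, and at 3.02 to 3.999 CPM with DOX in the tet-MUC1shRNA line. RPL13AP5, a copy of a ribosomal protein gene, was at 9.45, 11.4 and 9.43 CPM in 2D, 309, 279.6 and 251 CPM and 10.5, 12.1 and 8.75 CPM. The ribosomal RNA genes RNA5-8SN2 and RNA5-8SN3 (log2 fold change -6.87 and -7.08) and the pseudogenes NPM1P46 and YBX1P6 fell, and RPL9P7 (6.50) and BTF3L4P2 (3.94) rose in that line. These shifts follow the block of the table that holds the line in both treatments, and whether the reads of that block were counted in another way was not tested. With protein-coding genes alone in the fit, an alternative added after seeing the data, 358 genes called in the tet-MUC1shRNA line alone differed between the lines and 259 in the tet-MYCshRNA line alone, and 736 were up and 926 down in both.

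**Figure D3:**
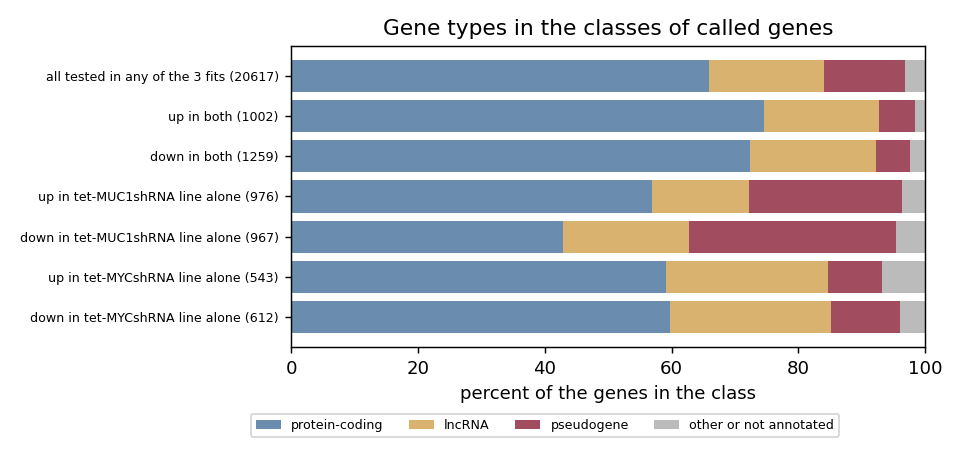
Stacked bars give the percentage of protein-coding, lncRNA, pseudogene and other genes in each class of called genes, with the number of genes in parentheses and all tested genes at the top. Pseudogenes are 24.3% of the genes up and 32.7% of the genes down in the tet-MUC1shRNA line alone and at most 10.9% in the other classes.

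Among protein-coding genes of the tet-MUC1shRNA line alone, KCND1, a voltage-gated potassium channel, was at 2.79, 2.47 and 2.80 CPM in 2D, 86.2, 73.6 and 69.1 CPM in the tet-MUC1shRNA line and 0.719, 1.14 and 1.01 CPM in the tet-MYCshRNA line. The lines differed by a log2 of -6.28 (SE 0.13, adjusted p = 4.0e-15), and the tet-MYCshRNA line lay under 2D, by a log2 of -1.48 that missed the fold threshold but passed it with protein-coding genes alone and without 2D replicate 2 or tet-MYCshRNA replicate 2. IFITM2 was at 0.226 to 0.342 CPM in 2D, 6.71 to 9.38 CPM in the tet-MUC1shRNA line and 0.335 to 0.546 CPM in the tet-MYCshRNA line. The next 3 rises by size of the line difference, chosen as protein-coding after their values were seen, were the secreted glycoprotein CHI3L1, the protocadherin PCDH1 and the glutamate transporter SLC17A7. PCDH1 was at 9.07, 13.8 and 13.1 CPM in 2D, 82.2, 68.6 and 69.3 CPM in the tet-MUC1shRNA line and 6.51, 5.69 and 7.23 CPM in the tet-MYCshRNA line, and CHI3L1 and SLC17A7 had log2 fold changes of 3.04 and 2.82 in the tet-MUC1shRNA line against -0.86 and -0.53 in the other. In untransduced 3D mammospheres CHI3L1 was higher still, at 10.1 to 10.9 CPM against 3.91 to 4.58 CPM in the tet-MUC1shRNA line, and PCDH1 was at 25.4 to 28.9 CPM, so a call in 1 line alone here compares only the transduced lines.

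The protein-coding falls of that line, chosen in the same way, were NETO1, ADGRL3 and 3 histone genes. NETO1, an accessory protein of glutamate receptors, was at 7.43, 6.10 and 7.93 CPM in 2D, 0.313, 0.306 and 0.315 CPM in the tet-MUC1shRNA line and 10.7, 9.52 and 8.85 CPM in the tet-MYCshRNA line. ADGRL3, a latrophilin adhesion receptor, was at 21.8, 26.4 and 32.6 CPM in 2D, 0.470, 0.706 and 0.708 CPM and 12.2, 12.5 and 12.9 CPM. The linker histone gene H1-5 was at 289.6, 351 and 325 CPM in 2D, 31.3, 29.7 and 26.3 CPM and 466, 436 and 382 CPM, and H2AC14 and H4C12 followed (-2.85 and -3.52). In untransduced 3D mammospheres NETO1 (0 to 0.0775 CPM) and ADGRL3 (2.20 to 2.77 CPM) were also low and H1-5 was not (294 to 338 CPM). Over 66 histone genes, chosen after values were seen, the summed level was 3815 to 4487 CPM in 2D, 2380.5 to 2726 CPM in the tet-MUC1shRNA line and 4715 to 5663 CPM in the tet-MYCshRNA line. Of the tested histone genes, 13 of 57 were called down in the tet-MUC1shRNA line and 1 of 58 in the tet-MYCshRNA line, beside 11.7% and 9.39% of all genes, with medians of -0.74 and 0.40. Called up were 3 in the tet-MUC1shRNA line and 1 in the tet-MYCshRNA line, beside 10.4% and 7.76% of all genes. Between the lines 23 of 58 were called higher in the tet-MYCshRNA line, beside 5.2% of all genes. Many histone transcripts lack a poly(A) tail and belong to near-identical copies, and the libraries were made from poly(A) RNA.

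Most genes of mitosis and DNA replication were also higher in the tet-MYCshRNA line than in the tet-MUC1shRNA line. Of 24 mitosis genes, 23 were tested in the tet-MUC1shRNA line and 5 were called down there, and none in the tet-MYCshRNA line, with medians of -0.92 and -0.17. MKI67, the proliferation marker Ki-67, was at 824, 767 and 744 CPM in 2D, 200.4, 210.5 and 199 CPM in the tet-MUC1shRNA line and 849, 856 and 881 CPM in the tet-MYCshRNA line. CENPF, a centromere protein, was at 564, 555 and 596 CPM in 2D, 104, 105 and 105 CPM and 357, 367 and 381 CPM, and both genes were called higher in the tet-MYCshRNA line (log2 2.10 and 1.83, adjusted p = 5.6e-15 and 2.8e-14). By adjusted p alone, 20 of 24 mitosis genes and 25 of 27 DNA replication genes were higher in the tet-MYCshRNA line and none lower, beside 33.5% and 33.3% of all genes. The 27 replication genes had medians of -0.39 and 0.34 against 2D, with 3 called down in the tet-MUC1shRNA line and CCNE1 called up in the tet-MYCshRNA line. Of 22 ribosome biogenesis genes, 1 was called up (RRP9) and 1 down (UBTF) in the tet-MUC1shRNA line and none in the other, and the call of RRP9 was lost with library size alone, with a minimum of 10 counts in every library and without 2D replicate 3. By adjusted p alone, 13 of the 22 were higher and 6 lower than 2D in the tet-MUC1shRNA line, beside 36.1% and 37.8% of all genes, and 20 were higher in the tet-MYCshRNA line, beside 33.8%, with medians of 0.30 and 0.64.

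Most genes of sterol synthesis, and FASN, were higher in the tet-MUC1shRNA line. Of 24 cholesterol genes, 7 were called up there and none in the tet-MYCshRNA line, beside 10.4% and 7.76% of all genes, and 1 was called down in both, with medians of 1.23 and 0.37. INSIG1, which restrains sterol synthesis, was at 305, 312 and 332 CPM in 2D, 2141, 1931 and 1902 CPM in the tet-MUC1shRNA line and 756, 764 and 809.7 CPM in the tet-MYCshRNA line. The demethylation enzyme MSMO1 was at 173, 170.2 and 180.4 CPM in 2D, 1112, 1102 and 1035 CPM and 200.1, 202.6 and 212 CPM, and it was the one list member called different between the lines (log2 -2.39, adjusted p = 4.0e-15), beside 10.6% of all genes. By adjusted p alone, 22 of the 24 were lower in the tet-MYCshRNA line and 2 higher, beside 33.3% and 33.5% of all genes. FASN, fatty acid synthase, was at 499, 514 and 468 CPM in 2D, 3490.5, 3477 and 3268 CPM in the tet-MUC1shRNA line and 929, 884 and 833 CPM in the tet-MYCshRNA line, also called different (log2 -1.94). Of the 14 tested genes of its list, ACSS2 was up (3.95 and 2.37) and SCD5 down (-2.32 and -2.91) in both, with medians of 0.40 and -0.08.

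Genes of the ATF4 response to amino acid shortage and endoplasmic reticulum stress were also higher in the tet-MUC1shRNA line. Of 18 genes, 9 were called up and 1 down there, none were called up and 2 were called down among 17 tested in the tet-MYCshRNA line, and the medians were 1.43 and -0.35. SESN2, a sensor of leucine, was at 17.1, 18.0 and 17.6 CPM in 2D, 145, 145 and 117 CPM in the tet-MUC1shRNA line and 27.7, 25.9 and 27.5 CPM in the tet-MYCshRNA line. TRIB3, a pseudokinase, was at 19.9, 21.6 and 20.8 CPM in 2D, 129, 126 and 112 CPM and 34.0, 30.9 and 31.1 CPM. In the test between the lines 8 of the 18 were called lower in the tet-MYCshRNA line, and 17 were lower by adjusted p alone, beside 5.39% and 33.3% of all genes. The serine biosynthesis enzyme PHGDH was called down in the tet-MYCshRNA line alone (-1.89 against -0.57), with a line difference of -1.32 below the threshold. Of its list of 15 serine and folate genes, GLDC was up in both (3.89 and 4.56), with medians of -0.39 and -0.04.

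The 13 protein-coding genes of mitochondrial DNA were mostly lower in the tet-MUC1shRNA line. Of these, 2 were called down there and none in the tet-MYCshRNA line, beside 11.7% and 9.39% of all genes, and 12 and 9 were lower than 2D by adjusted p alone, beside 37.8% and 32.4%, with medians of -1.07 and -0.21. MT-CO1, a subunit of cytochrome c oxidase, was at 13678, 13568 and 13689 CPM in 2D, 6761, 6184 and 5757 CPM in the tet-MUC1shRNA line and 8034, 8703 and 9374 CPM in the tet-MYCshRNA line. Untransduced 3D mammospheres were lower as well, at 5228 to 6157 CPM (log2 fold change -1.26). MT-ATP8 was at 363, 380.1 and 361 CPM in 2D, 92.5, 103 and 114 CPM and 392, 429 and 465 CPM and was called different between the lines (log2 2.07). Reads of overlapping mitochondrial genes such as MT-ATP8 and MT-ATP6 can be divided in several ways. Of 19 citric acid cycle enzymes, PC was called up in the tet-MUC1shRNA line and IDH2 down in the tet-MYCshRNA line, and the medians were 0.60 and 0.49.

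**Figure D4:**
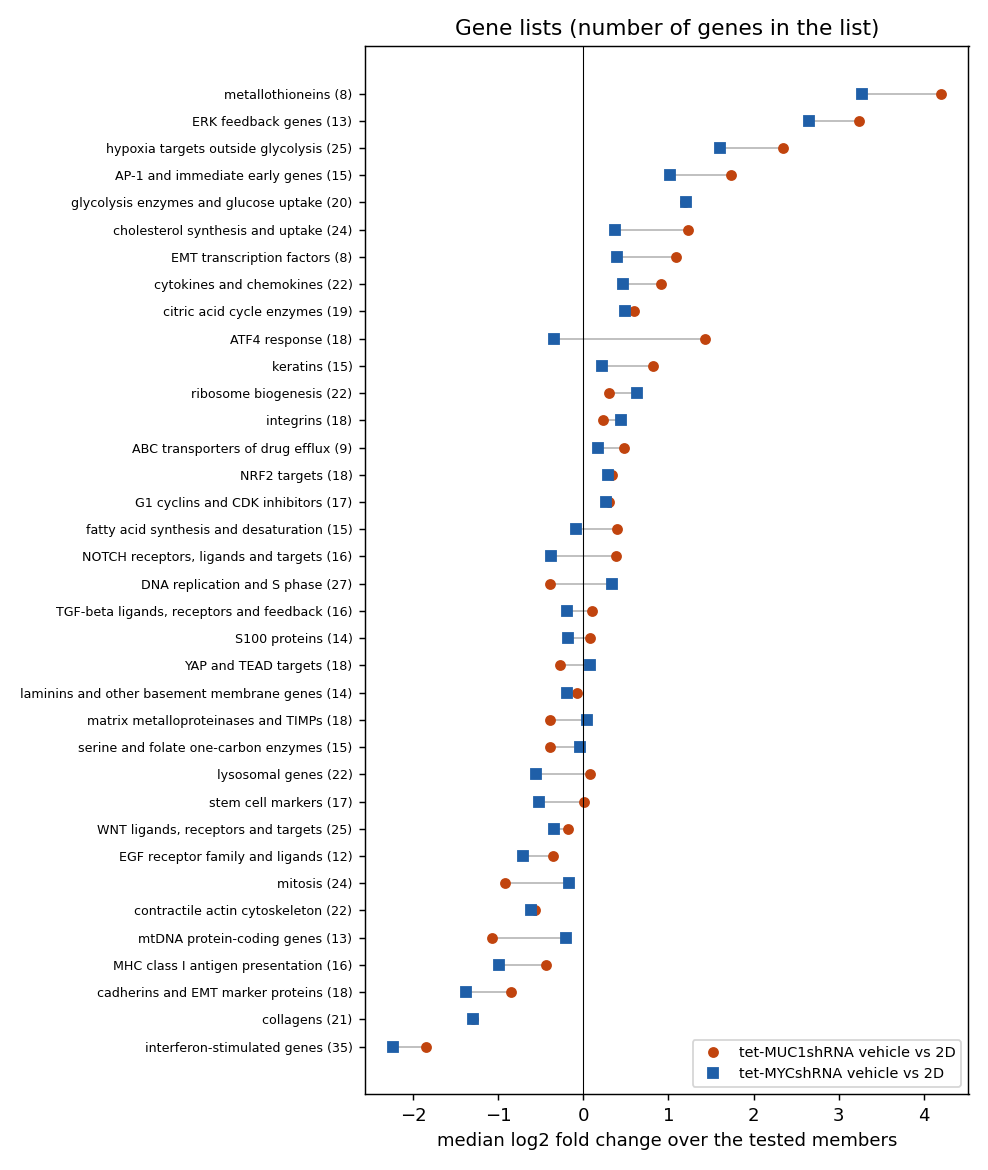
For each of the 36 gene lists, the median log2 fold change from 2D over its tested members is shown for tet-MUC1shRNA vehicle (circles) and tet-MYCshRNA vehicle mammospheres (squares), with the number of genes in the list in parentheses. ERK feedback genes, metallothioneins and hypoxia targets lie to the right in both lines and interferon-stimulated genes and collagens to the left, while ATF4 response genes lie at 1.43 in 1 line and -0.35 in the other.

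The tet-MYCshRNA line alone had 216 genes up and 151 down that differed from the tet-MUC1shRNA line. GJB2, connexin 26, was at 0.0443, 0.0695 and 0 CPM in 2D, 0.574, 0.0941 and 0.629 CPM in the tet-MUC1shRNA line and 13.6, 14.4 and 14.5 CPM in the tet-MYCshRNA line. UNC13A, a factor of vesicle release at synapses, was at 1.06, 1.15 and 0.718 CPM in 2D, 2.92, 1.79 and 2.01 CPM and 39.4, 39.8 and 38.7 CPM. Both were called higher in the tet-MYCshRNA line than in the other (log2 5.02 and 4.17, adjusted p = 4.6e-11 and 1.2e-13). Untransduced 3D mammospheres were also above 2D for both, at 2.75 to 3.36 CPM and 20.9 to 21.7 CPM (log2 fold change 6.22 and 4.45). The long noncoding RNA LINC02582 had no count in 2D and was at 8.56, 8.68 and 11.2 CPM in the tet-MYCshRNA line, at least 143-fold higher, with 0.893 to 1.19 CPM in untransduced 3D mammospheres, while SEMA7A (8.05 to 10.0 CPM) and P2RY8 (4.77 to 5.58 CPM) were at or under 0.496 CPM in the other groups. GJB2, LINC02582, SEMA7A and P2RY8 were not tested against 2D in the tet-MUC1shRNA line. Its libraries still lay above 2D for GJB2 (means 0.433 against 0.038 CPM), SEMA7A (0.346 against 0.0609) and P2RY8 (0.253 against 0.0114). Those of LINC02582 overlapped 2D. SYT7, a calcium sensor chosen as protein-coding after its values were seen, changed by 4.79 against 0.93. Many genes of this class had low counts, and 307 of the 543 genes up in this line alone were not tested in the other comparison with 2D, as were 205 of the 976 genes up in the tet-MUC1shRNA line alone. For the genes down in 1 line alone these numbers were 98 of 612 in the tet-MYCshRNA line and 2 of 967 in the tet-MUC1shRNA line.

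Of the genes down in the tet-MYCshRNA line, C1R, a protease of the complement system, was at 43.7, 62.3 and 62.9 CPM in 2D, 107, 101 and 103 CPM in the tet-MUC1shRNA line and 11.3, 10.3 and 10.9 CPM in the tet-MYCshRNA line. The lines differed by a log2 of -3.25 (SE 0.06, adjusted p = 1.6e-15), and the tet-MUC1shRNA line lay above 2D. The same order, with 2D in the middle, held for the long noncoding RNA LINC00968 (1.47 and -2.36), PENK-AS1 (1.12 and -2.25), PI15 (0.81 and -2.36), and, chosen as protein-coding after their values were seen, ATP9A (1.40 and -1.57) and OLFM2 (0.77 and -2.19). The call of ATP9A in the tet-MYCshRNA line fell under the fold threshold without 2D replicate 2 or tet-MYCshRNA replicate 2, and LINC00968 passed it upward in the tet-MUC1shRNA line without 2D replicate 2 or tet-MUC1shRNA replicate 1 or 2. PENK-AS1 is antisense to PENK, and the strand setting of the counting is not given in the sources used here, so reads of the pair may be mixed. The same holds for PENK-AS1 and LINC00968, which overlap on opposite strands of chromosome 8 (56445807 to 56556513 and 56494309 to 56559823). They may therefore not be separate examples. CADM1, a cell adhesion molecule, was lower than 2D in both lines, at 8.78, 10.0 and 9.48 CPM in 2D, 3.29, 3.53 and 4.05 CPM and 0.452, 0.374 and 0.392 CPM.

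Of the 6 genes called in opposite directions, 3 had a mean of at least 100 normalized counts. DNAH2, a dynein heavy chain of cilia, was at 0.599, 0.3998 and 0.530 CPM in 2D, 18.0, 15.1 and 17.4 CPM in the tet-MUC1shRNA line and 0, 0.0591 and 0.0816 CPM in the tet-MYCshRNA line. FMN1, a formin that assembles actin, was at 4.04, 3.16 and 2.38 CPM in 2D, 0.418, 0.800 and 1.10 CPM and 15.1, 14.9 and 14.9 CPM. IGSF10, an immunoglobulin-like protein, was at 0.953, 1.58 and 1.504 CPM in 2D, 0.209, 0.0235 and 0 CPM and 3.87, 4.31 and 4.78 CPM. The 3 groups did not overlap in any of them, and the lines differed by a log2 of -8.43, 4.24 and 5.95 (adjusted p = 2.1e-13, 1.0e-11 and 3.0e-09). Untransduced 3D mammospheres had DNAH2 at 0.0775 to 0.208 CPM, FMN1 at 2.38 to 3.28 CPM and IGSF10 at 0.0830 to 0.186 CPM. The rise of IGSF10 in the tet-MYCshRNA line fell under the threshold without 2D replicate 1 (1.48). The others, with lower counts, were MT1F, NOVA2 and STXBP6.

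**Figure D5:**
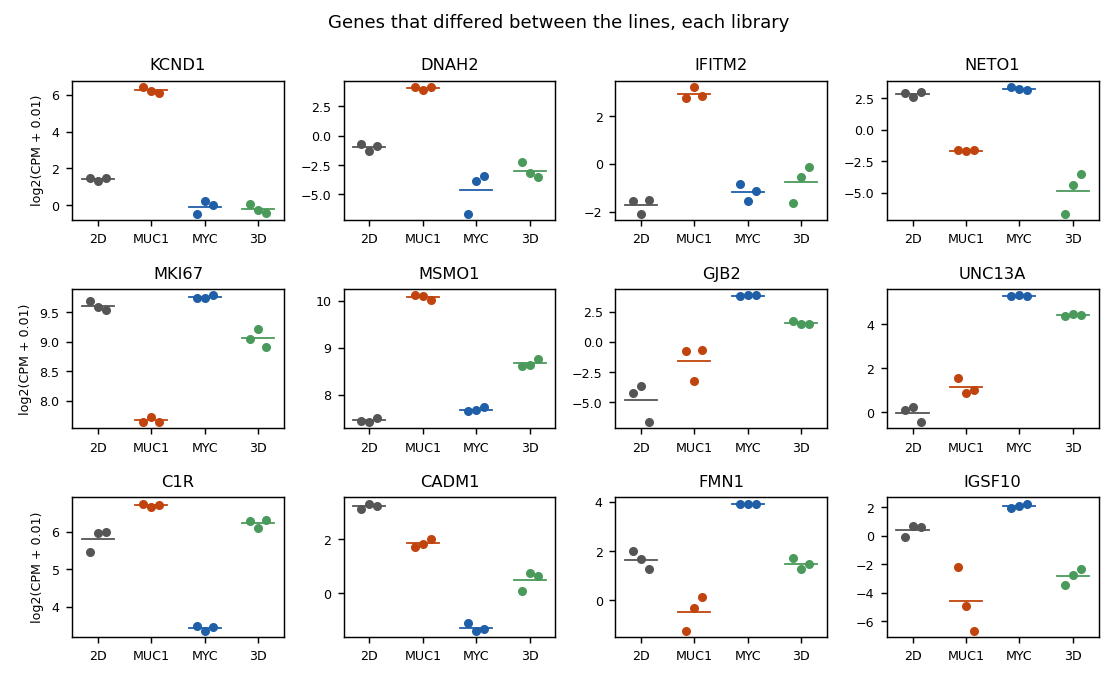
Each panel shows 1 gene that was called different between the mammosphere lines, with log2(CPM + 0.01) on the y axis, 1 point per library, a line at the group mean, and from left to right 2D, tet-MUC1shRNA vehicle (MUC1), tet-MYCshRNA vehicle (MYC) and untransduced 3D mammospheres. KCND1, DNAH2, IFITM2, MSMO1, C1R and CADM1 are higher in the tet-MUC1shRNA line and NETO1, MKI67, GJB2, UNC13A, FMN1 and IGSF10 in the tet-MYCshRNA line.

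The remaining lists held few shared calls. Of 16 NOTCH genes, 12 were tested, HEY1 was up (4.78 and 2.25) and NOTCH3 down (-1.59 and -5.40) in both, and 4 were called lower in the tet-MYCshRNA line than in the other, beside 5.39% of all genes, with medians of 0.38 and -0.38. NOTCH3, a receptor, was at 131 to 139 CPM in 2D, 44.01 to 46.2 CPM in the tet-MUC1shRNA line and 2.94 to 3.72 CPM in the tet-MYCshRNA line. Of 25 WNT genes, 20 and 21 were tested, WNT5B, WNT9A and NKD1 were up and AXIN2, DKK1 and FZD6 down in both, with medians of -0.19 and -0.34. Of 22 lysosomal genes, 21 were tested, NPC1 was up and SCARB2 down in both, and CTSL was called up in the tet-MUC1shRNA line alone (3.23 against 1.34) with the lines called different. The lysosomal medians were 0.08 and -0.56. Of 15 keratins, 4 and 5 were tested and KRT5 was up in both, from at most 0.0684 CPM in 2D to 0.826 to 1.62 and 3.85 to 6.61 CPM, with medians of 0.81 and 0.21. The other basal markers went the other way. TP63 had means of 1.81 CPM in 2D and 0.0775 and 0.161 CPM in the lines, and KRT14 of 0.154, 0.0157 and 0 CPM. Of 9 drug efflux transporters, 6 were tested and the cholesterol exporter ABCA1 was up in both (5.17 and 5.37), with medians of 0.48 and 0.18. Of 14 S100 genes, 8 were tested and S100A4 was up in both (3.63 and 1.61), a call lost in the tet-MYCshRNA line without 2D replicate 1, with medians of 0.08 and -0.18.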

How the data were processed

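Bulk RNA-seq of BT-549 cells was analysed from the raw count table the authors deposited, which holds 1 column per library. Per the labels and the study's methods, cultures were made in triplicate, RNA was extracted with RNeasy Plus columns, libraries were made with the TruSeq Stranded mRNA kit and sequenced as pairs on a NovaSeq instrument, and reads were aligned with STAR and counted per gene with featureCounts on GRCh38. The submitters' processing notes name CASAVA 1.8.2, STAR 2.7.3a and DESeq2. The annotation release and the strandedness and multi-mapping options of the counting are not given in the sources used here. No normalization had been applied to the deposited counts, and how pairs were counted can only be read from the values, as stated with the library totals.

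Here, symbols were taken from GENCODE 44 for 42252 of the 42339 gene identifiers, and cells without a value were read as 0. Each comparison was fitted on its 6 libraries with edgeR 4.0.16 in R 4.3.3, by filterByExpr, TMM factors and the quasi-likelihood test, with Benjamini-Hochberg adjusted p over all genes tested. Calls needed both an adjusted p under 0.1 and a log2 fold change beyond 1.5 in either direction. SE is the absolute log2 fold change divided by the square root of F. A group with no count was set at a floor of 3 counts per library, and the fold change is then a bound. A group with 1 to 3 counts in all got a ratio with a 95% exact (Clopper-Pearson) counting interval. The fits were tested on simulated counts.

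The genes named in each class had a mean of at least 100 normalized counts and groups that did not overlap, and were ranked by the smaller of both changes for genes called in both lines and by the difference between lines for the others, with up to 4 members of each list. Genes outside that rule are stated to be chosen after their values were seen. The lines, gene lists and comparisons were chosen with earlier results of these data known. Alternatives were DESeq2 1.42.0, other scaling factors, filters, thresholds and fits, a replicate block, and leaving out each library. Fits to protein-coding genes alone and to counts halved and rounded up were added after seeing the data. Promoter stretches came from RefSeq (GRCh38.p14). Some members of the gene lists are counted but not reported by name here.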

Additional observations from a re-analysis of the deposited data

Results flagged for a closer look

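For 34 named genes the change from 2D differed between the lines, past the thresholds of the edgeR test of one line against the other. Values are the log2 difference of the tet-MYCshRNA vehicle line minus the tet-MUC1shRNA vehicle line, with 3 libraries in each, and all 3 libraries of a line lay on the same side of those of the other. Higher in the tet-MUC1shRNA line, where they had been called up, were KCND1 (-6.28), RPL9P7 (-5.14), RPL13AP5 (-4.71), BTF3L4P2 (-4.17), IFITM2 (-4.14), CHI3L1 (-3.90), PCDH1 (-3.49) and SLC17A7 (-3.36). Lower in the tet-MUC1shRNA line, where they had been called down, were RN7SKP80 (8.95), YBX1P6 (7.28), RNA5-8SN3 (7.09), RNA5-8SN2 (6.91), NPM1P46 (5.95), NETO1 (4.97), ADGRL3 (4.31), H1-5 (3.90), H2AC14 (3.61) and H4C12 (3.61).

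Higher in the tet-MYCshRNA line, where they had been called up, were LINC02582 (7.09), GJB2 (5.02), SEMA7A (4.78), P2RY8 (4.34), UNC13A (4.17) and SYT7 (3.87). Lower there, where they had been called down, were LINC00968 (-3.83), PENK-AS1 (-3.36), C1R (-3.25), PI15 (-3.16), CADM1 (-3.14), ATP9A (-2.97) and OLFM2 (-2.96). The genes called in opposite directions from 2D were DNAH2 (-8.43), FMN1 (4.24) and IGSF10 (5.95). Many pseudogene and small RNA values follow the block of the table that holds both treatments of the tet-MUC1shRNA line, and the part of that block in these values was not tested.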

How the results depend on the processing

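Counts of called genes kept within 1.5 times the reported value in 126 of 145 cases and moved further in 19. A minimum of 10 counts in every library gave 2252 calls in the tet-MUC1shRNA line, 1749 in the tet-MYCshRNA line, 1134 between the lines, 505 genes up and 594 down in both, and 447 and 148 genes called in the tet-MUC1shRNA or tet-MYCshRNA line alone that differed between the lines, since it removes genes near 0 in a group. A fold change above 1.5 in place of a log2 of 1.5 gave 9828, 8201, 7632, 2423, 2908, 3017 and 1442 in the same order. Without a filter beyond 1 count, 3111 genes were called between the lines, and with all 21 libraries in one fit 1516 were up in both. Protein-coding genes alone gave 2634 calls in the tet-MUC1shRNA line, 1061 between the lines and 358 in the tet-MUC1shRNA line alone that differed, from a smaller set of genes. Leaving out 1 library gave 4457 to 4785, 3727 to 3868, 2265 to 2420, 1004 to 1180, 1251 to 1366, 897 to 1100 and 360 to 450 in the order above. The ranges for calls in each line, between the lines and up in both lie wholly above the reported 4210, 3422, 2027 and 1002. DESeq2 gave 1006 genes up and 1251 down in both, of which 999 and 1241 were also called by edgeR. Counts halved and rounded up gave 834 and 1062, with 833 and 1055 shared.

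Library size without TMM factors shifted the median log2 fold change in the tet-MUC1shRNA line from -0.03 to -0.13, took the share of its calls that were higher from 47.1% to 42.6%, and took that share between the lines from 49.1% to 55.2%. No named gene that was called changed sign under an alternative, 27 values fell below a threshold, 177 rose past one, mostly with the lower fold threshold, and 46 uncalled values changed sign. Libraries with the same replicate number deviated together weakly or not at all (correlations of -0.16 to 0.15 over the 3 pairs of groups), which does not exclude a weak pairing. A replicate block gave 4245, 3450, 2059, 1009, 1275, 908 and 376 calls in the order above. List medians moved by over 0.25 in 45 of 1368 cases. Low counts limit the genes near 0, where bounds replace fold changes for groups without a count and some fitted values rest on few counts. YBX1P6 had 0, 2 and 0 counts in the tet-MUC1shRNA line. Its ratio between the lines was 175 (95% counting interval 48.2 to 1447).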
